A study of Homo sapiens with 16 samples.

Results

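The proteasome is the protease that degrades ubiquitin-tagged proteins, and this account follows its genes through RNA sequencing of MDA-MB-231 cells, a line derived from a triple-negative breast cancer. Members were the protein-coding genes whose symbols begin with PSMA, PSMB, PSMC, PSMD, PSME or PSMG and a number, together with PSMF1 and POMP, without pseudogenes. There were 49 such genes among the 60719 gene identifiers of the series. The study deleted TXNIP, a thioredoxin-binding protein that restrains glucose uptake, by CRISPR/Cas9 editing to give 231:TKO cells, and depleted the transcription factor Myc with siRNA. The groups were untreated parental 231 and untreated 231:TKO, with 2 libraries each, and 231:TKO or parental 231 cells that received a non-targeting siRNA (siNT) or siMyc for 48 h, with 3 libraries each. All 16 libraries came from the same line, the parental 231 cells were unedited, and the 231:TKO cells were grown from single-cell clones, so what separates them from parental 231 can include clonal differences.

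The library totals ran from 18953668 to 59799444 counted reads or read pairs. TXNIP had 276 CPM (counts scaled by library size) in both untreated parental 231 libraries and 12.7 and 46.5 CPM in the 231:TKO libraries. In the siRNA libraries it had 6.7 to 10.1 CPM in 231:TKO and 296 to 469 CPM in parental 231. MYC fell with siMyc by 1.21 ± 0.06 (SE) on the log2 scale in 231:TKO and by 0.96 ± 0.09 in parental 231, with adjusted p of 1.69e-11 and 0.0297 by edgeR's quasi-likelihood test. Genes that mark this line were present (VIM at 1850 to 3100 CPM, CD44 at 566 to 1390 CPM), and ESR1, which triple-negative cells lack, had at most 12 counts. Of the other genes listed as low in this line, PGR had at most 4 counts. ERBB2 and GATA3 were not near 0, at 74.3 to 107 CPM and 11.3 to 31.4 CPM. Parental 231+siNT replicate 1 and parental 231+siMyc replicate 3 stood apart together, since their deviations from their group means correlated at 0.9 over 13448 genes. Proteasome genes took part in that shift, with a median deviation of 0.20 and 0.15 (log2) in these libraries against -0.08 to -0.11 in the other parental 231 siRNA libraries and at most 0.01 in size in the 231:TKO siRNA libraries. Counts of called members that use parental 231 siRNA libraries are therefore given also with a factor for these libraries or without them, and so are the values of members described whose call changed or whose value moved by over 1.5 times.

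The 20S core is a barrel of alpha rings, which gate the entry, around beta rings, which hold the cutting sites. The 19S particle sits on the ends of the barrel: its base unfolds the substrate with ATPases and its lid removes ubiquitin. In cells exposed to interferon, the catalytic beta subunits PSMB5, PSMB6 and PSMB7 are replaced by PSMB8, PSMB9 and PSMB10, and this immunoproteasome is known for making peptides that are shown to T cells. Separate proteins cap the core as alternative activators, and chaperones that are not part of the finished particle assemble the core and the base. By these roles the 49 genes were 7 core alpha, 7 constitutive core beta, 3 immunoproteasome, 9 base and 8 lid genes, 5 activators or inhibitors, 5 core assembly factors, 3 base assembly chaperones and 2 tissue-restricted forms.

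The tissue-restricted forms were near 0. PSMA8, the alpha subunit of the testis, had at most 2 counts in any library and PSMB11, the thymus-specific beta subunit, at most 1 count, both under the floor of 3 counts, which stood for 0.0502 to 0.158 CPM depending on the library. The other 47 genes were measured in every library. Divided by exon length and scaled to the same sum in every library (the level per length), their levels in untreated parental 231 ran from 1.63 ± 0.401 (SD, n = 2) for PSMA2 to 754 ± 13.9 for PSMA7. PSMA7, an alpha ring subunit, was at 754 and PSMD2, a scaffold of the base, at 733 ± 9.9, close to each other and both well above PSMC3, a base ATPase, at 487 ± 1.26. The constitutive beta genes PSMB3, PSMB4, PSMB1, PSMB7, PSMB5 and PSMB6 followed at 434 to 380. The spreads overlapped for PSMB4 and PSMB1, at 421 ± 3.8 and 416 ± 3.93, and for PSMB7 and PSMB5, at 402 ± 1.11 and 398 ± 6.91. Those of the other neighbours in that order did not. The catalytic genes of the immunoproteasome were far lower, at 44.8 ± 2.18 for PSMB8, 14.8 ± 1.09 for PSMB9 and 12.2 ± 1.1 for PSMB10. Among the core assembly factors, POMP, which guides assembly of the beta ring, had a level per length of 341 ± 12.8, and PSMG4, a partner of PSMG3 in alpha ring assembly, 8.64 ± 0.584. The length is that of all exons in the gene model, 1462 bases for POMP and 10415 for PSMG4. The order of the levels thus depends on the gene models as well as on the counts.

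**Figure D1:**
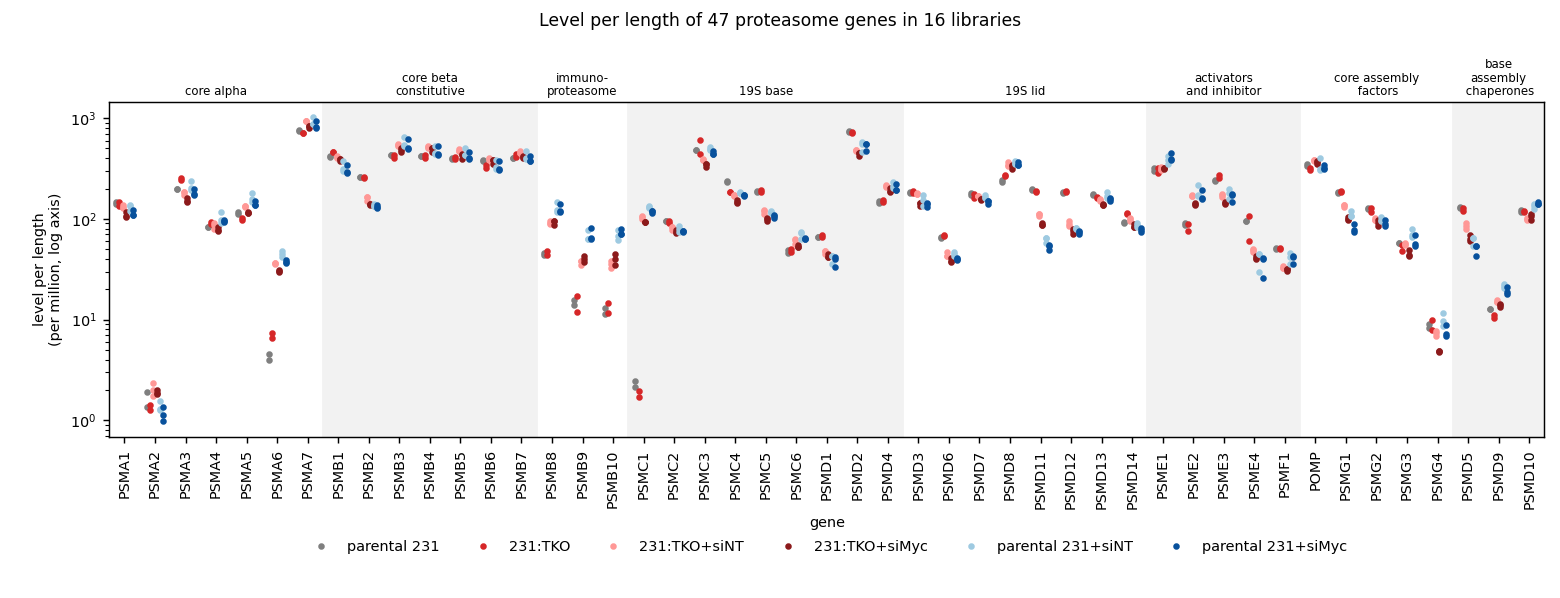
Level per length (counts per kilobase of exon, scaled to the same sum in every library; log axis) of 47 proteasome genes in each of the 16 libraries, 1 point per library, coloured by group. PSMA7 lay near the top in every group, PSMB9 and PSMB10 lay lower in the untreated libraries than in the siRNA libraries. PSMC1 ranked 46 of 47 in both untreated groups and 24 to 27 in the siRNA groups, and PSMA6 ranked 45 in both untreated groups and 40 to 44 in the siRNA groups.

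Some members could not be counted evenly. PSMC1, a base ATPase, had 57 to 78 counts in the untreated libraries and 5205 to 11775 in the siRNA libraries, and PSMA6, an alpha subunit, had 110 to 320 against 1807 to 4447. The annotation holds 13 pseudogene models named after PSMC1 and 4 after PSMA6, and reads that matched more than 1 place were not counted. Counting used single reads for the untreated libraries but read pairs for the siRNA libraries, and the part of read type in this gap was not tested. PSMA2 stayed at 47 to 185 counts in all libraries, with 3 pseudogene models and 17.2% of its exons under another gene model, so its level is uncertain too.

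Summed over all members, the level per length was nearly the same in 4 of the 6 groups and lowest in 231:TKO+siMyc. It was 9160 ± 120 (SD) in parental 231, 9120 ± 21.2 in 231:TKO and 9100 ± 28.9 in 231:TKO+siNT, against 8200 ± 138 in 231:TKO+siMyc. In the parental 231 siRNA libraries it was 9250 ± 551 with siNT and 8660 ± 437 with siMyc, and in each of these groups the library that stood apart was the highest.

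Myc depletion in 231:TKO cells was followed by modestly lower transcripts for most of the proteasome. Of the 47 members tested, 27 fell (57.4%) and 0 rose, where 13.9% of all 22450 genes tested fell and 13.3% rose (edgeR's quasi-likelihood test, Benjamini-Hochberg adjusted p of at most 0.05). The log2 fold change was negative for 42 of the 47 members, with a median of -0.16 against 0.007 over all genes tested. Among the core genes, 5 of 7 alpha and 4 of 7 constitutive beta genes fell, as did 5 of 9 base and 6 of 8 lid genes. Of the activators and inhibitor 3 of 5 fell, of the core assembly factors 3 of 5 and of the base assembly chaperones 1 of 3. None of the 3 immunoproteasome genes was called. These shares were not tested against each other.

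The assembly factors held the lowest median, -0.32. PSMG4 had 21.2, 20.2 and 18.9 CPM in 231:TKO+siNT and 13.3, 13.4 and 13.3 CPM in 231:TKO+siMyc. The siMyc libraries were nearly identical and all below the siNT libraries. Its log2 fold change was -0.59 ± 0.07 (SE), adjusted p 2.87e-06, which was the largest fall among members. PSMG1, which with PSMG2 builds the alpha ring, had 78.3, 74.9 and 77.6 CPM with siNT and 55.4, 56.0 and 58.8 CPM with siMyc, again without overlap. It fell by 0.44 ± 0.05 on the log2 scale (adjusted p 2.62e-06). PSMG3, the partner of PSMG4, went from 29.5, 30.3 and 28.6 CPM to 25.6, 22.9 and 22.2 CPM, also without overlap, a change of -0.32 ± 0.07 (adjusted p 0.00104). The remaining core assembly factors were not called: PSMG2 had -0.12 ± 0.06 (adjusted p 0.118) and POMP -0.08 ± 0.05 (adjusted p 0.257). The CPM of PSMG2 and POMP did not overlap between the groups either, so a lack of overlap is not particular to the called members.

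In the regulatory particle the falls were led by a base chaperone and by lid genes. PSMD5, a chaperone that holds base ATPases before the base joins the core, had 99.6, 91.7 and 104 CPM with siNT and 70.7, 72.7 and 80.3 CPM with siMyc. Every siMyc library was below every siNT library, and the log2 fold change was -0.40 ± 0.06 (adjusted p 3.31e-05). PSMD3, a lid scaffold subunit, had 232, 238 and 230 CPM with siNT against 191, 188 and 174 CPM with siMyc, a fall of 0.34 ± 0.05 (adjusted p 1.87e-05). PSMD11, a lid subunit linked to particle assembly, was at 208, 199 and 206 CPM against 164, 164 and 168 CPM, a fall of 0.30 ± 0.05 (adjusted p 4.44e-05). Neither gene's groups overlapped. The base ATPase PSMC4 fell by 0.21 ± 0.05 (adjusted p 0.00295), from 114, 117 and 116 CPM to 104, 99.2 and 97.2 CPM. The other base chaperones PSMD9 and PSMD10 were not called, with log2 fold changes of -0.13 and 0.08.

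Among the activators, PSME2 (a subunit of the interferon-induced PA28 cap) fell by 0.27 ± 0.05, PSME3 (the nuclear PA28 form) by 0.26 ± 0.05 and PSME4 (the PA200 activator) by 0.24 ± 0.05, with adjusted p of 0.000224, 0.000186 and 0.000903. PSME2 went from 163, 158 and 158 CPM to 133, 136 and 128 CPM, while PSME1, its partner in the PA28 ring, had 142, 152 and 147 CPM with siNT and 151, 150 and 146 CPM with siMyc. The partners thus differed in their values, PSME1 having a log2 fold change of 0.02 ± 0.05 (adjusted p 0.84). The inhibitor PSMF1 had -0.09 ± 0.05 (adjusted p 0.237). Of the catalytic genes, PSMB5 fell by 0.19 ± 0.05 (adjusted p 0.0105) and PSMB7 by 0.15 ± 0.05 (adjusted p 0.0194), whereas PSMB6 had -0.08 ± 0.05 (adjusted p 0.294). Their interferon-inducible counterparts PSMB8, PSMB9 and PSMB10 had 0.02 ± 0.06, 0.12 ± 0.07 and 0.17 ± 0.09, with adjusted p of 0.865, 0.244 and 0.184. These libraries were bulk cultures, so a lower level in every cell and a change in the mix of cells cannot be told apart.

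In a single fit of all 12 siRNA libraries, 5 members fell with siMyc in 231:TKO in place of 27, and the cause of that change was not tested. The output names in the counting headers of these 231:TKO libraries began with the same number, whose meaning is not stated. No library among them stood apart.

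The same siMyc comparison in parental 231 cells gave no call for a proteasome gene when the libraries were taken as they are. Of all 23728 genes tested 0.24% rose and 0.354% fell, and 3462 genes had an unadjusted p under 0.05. The members' values were below 0 for 40 of 47, with a median of -0.10 against -0.002 over all genes. PSMG1 had 78.7, 62.1 and 62.2 CPM with siNT and 45.1, 47.3 and 59.6 CPM with siMyc, where the highest library of each group was one that stood apart. Its groups did not overlap, yet its log2 fold change of -0.44 ± 0.15 had an adjusted p of 0.22. PSMG4 had 36.6, 27.0 and 24.7 CPM against 21.1, 20.3 and 28.4 CPM, groups that overlapped through the same libraries.

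With a factor for the libraries that stood apart, chosen after the data were seen, 19 members fell (40.4%) and 2 rose, against 13.1% and 13.7% of all genes. Without these libraries 9 fell and 1 rose, against 10.9% and 9.94% of all genes, with 2 libraries left in each group. The members that fell with the factor were 4 alpha, 3 base, 6 lid, 1 activator, 3 core assembly and 2 base chaperone genes, and no constitutive beta gene was among them. PSMG1 had the lowest value at -0.44 ± 0.05 (adjusted p 4.25e-11), followed by PSMG4 at -0.36 ± 0.06 (adjusted p 1.37e-06), PSMD5 at -0.24 ± 0.04 (adjusted p 2.57e-05) and PSMG3 at -0.22 ± 0.05 (adjusted p 0.000462). The genes that rose were PSMD10, at 0.14 ± 0.04 (adjusted p 0.00887), and PSMB10, at 0.14 ± 0.05 (adjusted p 0.0388). Of the 27 members that fell in 231:TKO, 17 also fell in parental 231 with the factor. That was 63.0% of the 231:TKO list and 89.5% of the parental 231 list, and the comparisons share no library. The matching overlap over all genes was not counted, so these shares have no background and no agreement is read from them.

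**Figure D2:**
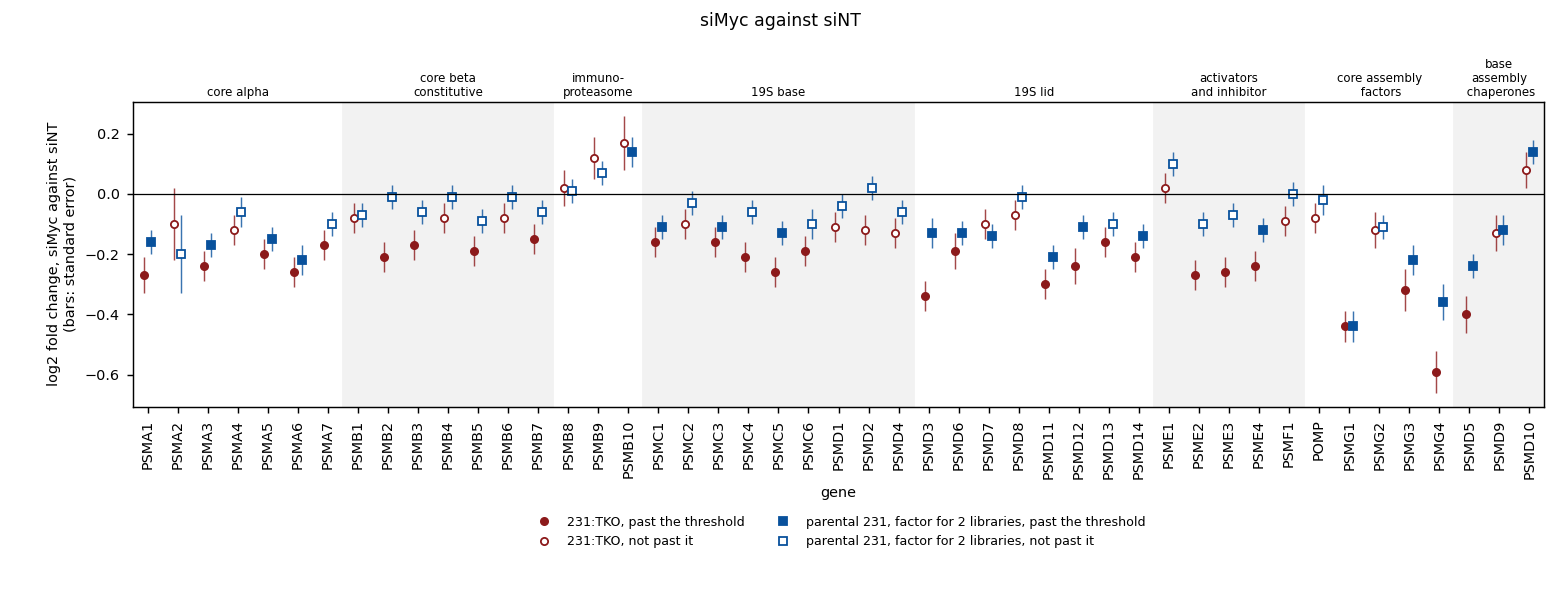
Log2 fold change of siMyc against siNT (bars are standard errors) for 47 proteasome genes, in 231:TKO (circles) and in parental 231 with a factor for the libraries that stood apart (squares); filled symbols passed an adjusted p of 0.05. Most points lie below 0 in both, PSMG1, PSMG4 and PSMD5 lie lowest, and the 3 immunoproteasome genes lie at or above 0.

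Whether siMyc acted differently in the cell populations was tested by an interaction term. None of the 48 members tested was called, and 0 of all 25812 genes tested were called higher and 0 lower (0% in each direction), with 1039 genes at an unadjusted p under 0.05. The difference, 231:TKO minus parental 231, was below 0 for 38 of the 48 members, with a median of -0.04 against 0.029 over all genes. Without the libraries that stood apart it was below 0 for 45 of 48, with a median of -0.12. The median was -0.19 without parental 231+siNT replicate 1, 0.01 without parental 231+siNT replicate 2 and 0.00 without parental 231+siMyc replicate 3. For PSMG4 the difference was -0.20 with a 95% interval of -0.60 to 0.19, for PSMD3 it was -0.18 with an interval of -0.40 to 0.04, and for PSMG1 it was 0.03 with an interval of -0.28 to 0.34. Intervals of this width do not show that the responses were alike. With the factor for the libraries that stood apart, 0.395% of all genes were called higher and 0.174% lower, again with no member among them, and without these libraries 0.0999% and 0.152%.

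Promoters of the assembly factors that fell furthest are shown because these genes led the siMyc comparisons in both populations, with that of PSME3 as a gene that fell in 231:TKO and holds the letters that Myc and its partner bind. The windows run from 250 bases before to 50 after the RefSeq start on GRCh38.p14, 5′ to 3′ on the gene's strand. PSMG1 lies at chr21:39183402-39183701 on the minus strand, PSMG4 at chr6:3258697-3258996 on the plus strand and PSME3 at chr17:42833147-42833446 on the plus strand. Capitals mark TGACNNNGC in PSMG1, 183 bases before the start, the pair GAAA and GAAA with any 2 bases between in PSMG4, 33 before, and CACGTG in PSME3, 42 before.
PSMG1: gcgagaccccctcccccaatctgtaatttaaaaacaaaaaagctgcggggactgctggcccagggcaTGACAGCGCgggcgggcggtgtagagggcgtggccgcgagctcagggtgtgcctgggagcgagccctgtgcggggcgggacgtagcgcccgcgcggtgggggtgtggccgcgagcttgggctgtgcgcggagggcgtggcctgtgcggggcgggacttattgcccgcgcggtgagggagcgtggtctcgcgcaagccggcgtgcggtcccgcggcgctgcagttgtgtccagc
PSMG4: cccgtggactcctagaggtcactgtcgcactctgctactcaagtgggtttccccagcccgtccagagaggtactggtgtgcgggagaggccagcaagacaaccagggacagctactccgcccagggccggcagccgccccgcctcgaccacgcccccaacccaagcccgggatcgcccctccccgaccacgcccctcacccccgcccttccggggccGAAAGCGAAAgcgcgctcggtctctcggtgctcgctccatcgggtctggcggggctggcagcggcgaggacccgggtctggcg
PSME3: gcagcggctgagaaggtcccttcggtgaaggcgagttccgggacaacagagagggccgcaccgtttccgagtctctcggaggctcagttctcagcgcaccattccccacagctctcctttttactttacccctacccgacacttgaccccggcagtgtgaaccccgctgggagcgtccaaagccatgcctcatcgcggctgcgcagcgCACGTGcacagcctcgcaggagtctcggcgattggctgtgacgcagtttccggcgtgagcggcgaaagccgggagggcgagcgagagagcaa

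The letters were searched on both strands of the 35116 RefSeq promoter sequences given, in which 43 of the 49 members were found with 52 sequences. PSMA7, PSMB1, PSMB6, PSMB7, PSMD4 and PSMG3 were not matched. CACGTG, the E-box, was in 5.77% of the members' sequences and 7.26% of all promoters, namely in PSMB3, PSMD9 and PSME3. TGACNNNGC, the core of the antioxidant response element that the proteasome gene activator NFE2L1 also uses, was in 28.8% of the members' sequences and 13.3% of all. The pair of GAAA with any 2 bases between, which resembles the interferon-stimulated response element, was in 13.5% and 3.57%. Each match describes letters in a window and was not read as a bound site.

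Without siRNA, few proteasome genes were called between 231:TKO and parental 231. With 2 libraries in each group, and 231:TKO replicates that disagreed on some members, this does not show that the other members were alike. Of 47 members, 3 rose (6.38%) and 1 fell (2.13%) in 231:TKO against parental 231, beside 5.43% and 4.18% of all 19965 genes tested, and the members' median log2 fold change was 0.03 against 0.005 over all genes. CPM were scaled over all 16 libraries and the fits over their own, so CPM of untreated 231:TKO lie higher against parental 231 than the log2 fold changes do. Summed over all members, CPM were 6950 and 6980 in 231:TKO against 6390 and 6370 in parental 231. The alpha genes PSMA3 and PSMA6 and the lid deubiquitinase PSMD14 rose. PSMA3 had 127 and 128 CPM in parental 231 and 179 and 169 CPM in 231:TKO, a log2 fold change of 0.37 ± 0.06 (adjusted p 0.0259). PSMD14 had 141 and 140 CPM against 190 and 185 CPM, a change of 0.34 ± 0.06 (adjusted p 0.0276). PSMA6, counted unevenly as described above, had 6.16 and 5.35 CPM against 10.9 and 9.61 CPM, a change of 0.76 ± 0.16 (adjusted p 0.0489).

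PSMC4 was the member that fell, from 126 and 125 CPM to 107 CPM in both 231:TKO libraries, with a log2 fold change of -0.30 ± 0.06 (adjusted p 0.0363). For each of these members both 231:TKO libraries lay on the same side of both parental 231 libraries in CPM. Many members that were not called, among them PSMA4, PSMB1 and PSMB2, were separated in the same way, so the separation is not particular to the called members. None of the 4 calls held in every fit that left out 1 library. With each library offset by the median deviation of the gene's neighbours within 10 Mb on either side (neighbour offsets), PSMD14 had -0.13, the opposite direction. PSMC4 had -0.18 and PSMA6 0.71 with these offsets, neither called (adjusted p 0.0997 and 0.0556 by the same test). PSMA3 was still called at 0.31 (adjusted p 0.0263), and the lid gene PSMD8, not called before, was called higher at 0.34 (adjusted p 0.0228). The 231:TKO replicates disagreed on PSME4, at 144 and 249 CPM, and on PSMC3, at 227 and 312 CPM, while the parental 231 replicates had 206 and 209 CPM and 229 and 232 CPM for the same genes. The immunoproteasome genes PSMB8, PSMB9 and PSMB10 had log2 fold changes of 0.08, 0.02 and 0.17, none past the threshold, and PSMG1 and PSMG4 both had 0.09.

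Between the siRNA libraries of 231:TKO and parental 231, PSMB10 and PSMB9 of the immunoproteasome had the lowest log2 fold changes among the members. With siNT, 18 of 47 members were lower in 231:TKO (38.3%) and 2 were higher, beside 20.7% and 16.1% of all 23310 genes tested, and all 3 immunoproteasome genes were among the 18. With siMyc, 21 members were lower (44.7%) and 2 higher, beside 21.7% and 18.8% of all 23561 genes, again with all 3 immunoproteasome genes. None of the 7 constitutive beta genes was called in either comparison, a result that did not hold in the fits described further on. In the counting headers, output names of the parental 231 siRNA libraries began with another number (19208) than those of 231:TKO (18604). The annotation release also differed, Ensembl 104 against 102. What the number stands for is not stated. Genotype, annotation release and whatever goes with the number cannot be told apart in these comparisons.

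PSMB10, the trypsin-like immunoproteasome subunit, had 38.0, 29.0 and 27.4 CPM in parental 231+siNT and 15.2, 16.6 and 13.9 CPM in 231:TKO+siNT. All 231:TKO values were below all parental 231 values, with a log2 fold change of -1.08 ± 0.13 (adjusted p 9.51e-05). With siMyc it had 32.6, 32.4 and 40.4 CPM in parental 231 against 19.5, 17.0 and 14.9 CPM in 231:TKO, a difference of -1.03 (adjusted p 2.57e-05). PSMB9 had 78.7, 56.3 and 57.1 CPM against 33.3, 33.9 and 30.2 CPM with siNT, a difference of -1.01 ± 0.13 (adjusted p 0.000139), and one of -0.95 (adjusted p 8.27e-05) with siMyc. PSMB8 had 154, 113 and 111 CPM against 82.0, 88.4 and 81.9 CPM with siNT, a difference of -0.61 ± 0.12 (adjusted p 0.00266), and one of -0.59 (adjusted p 0.00111) with siMyc. In none of these did the groups overlap.

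Neighbouring genes moved with some of them. PSMB8 and PSMB9 lie side by side in the major histocompatibility region of chromosome 6, at 32840717 to 32844679 and 32844136 to 32859851 (GRCh38), and PSMB10 lies on chromosome 16 at 67934506 to 67936864. With neighbour offsets, PSMB8 had -0.20 with siNT and -0.15 with siMyc and was no longer called. PSMB9 had -0.59 and -0.51 and PSMB10 had -1.02 and -1.05, all still called. The exons of PSMB10 were under another gene model over 39.4% of their length, and those of PSMB9 under PSMB8-AS1 over 5.21%. Of 3 leukocyte markers measured, the pan-leukocyte gene PTPRC had 29 to 79 counts in parental 231 and 0 to 4 in 231:TKO, and the T cell gene CD3E had at most 1 count in any library. Summed with CD14, a monocyte gene that made up most of the sum in the siRNA libraries, they had 2.53 to 2.78 CPM in parental 231, 0.513 to 0.912 CPM in 231:TKO, 4.54 to 4.74 CPM in 231:TKO+siNT, 7.85 to 10.0 CPM in 231:TKO+siMyc, 14.3 to 18.7 CPM in parental 231+siNT and 22.4 to 26.6 CPM in parental 231+siMyc. The part of these genes in the differences was not tested.

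Leaving out the libraries that stood apart lowered the size of the immunoproteasome differences and kept all 3 calls, with log2 fold changes from -0.90 to -0.42 with siNT and from -0.91 to -0.45 with siMyc. It ended the absence of calls among the constitutive beta genes: with siNT, 5 of 7 were then higher in 231:TKO and 0 lower, and with siMyc 2 were higher, PSMB1 and PSMB6, and 1 was lower, PSMB3. The factor gave the same counts. PSMB1 had 0.20 in both comparisons with the libraries taken as they are (adjusted p 0.238 and 0.159) and 0.37 and 0.34 with the factor (adjusted p 6.88e-08 and 5.13e-06). With neighbour offsets it was called in the other direction, at -0.41 (adjusted p 0.041) and -0.50 (adjusted p 0.00422), so no direction is given for it. Over all members, 11 were then higher and 19 lower with siNT, beside 22.4% and 25.8% of all genes. With siMyc 6 were higher and 24 lower, beside 23.1% and 26.6% of all genes. With the factor in place of leaving them out, 11 were higher and 20 lower with siNT (20.7% and 25.9% of all genes) and 6 higher and 24 lower with siMyc (22.4% and 25.9% of all genes).

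**Figure D3:**
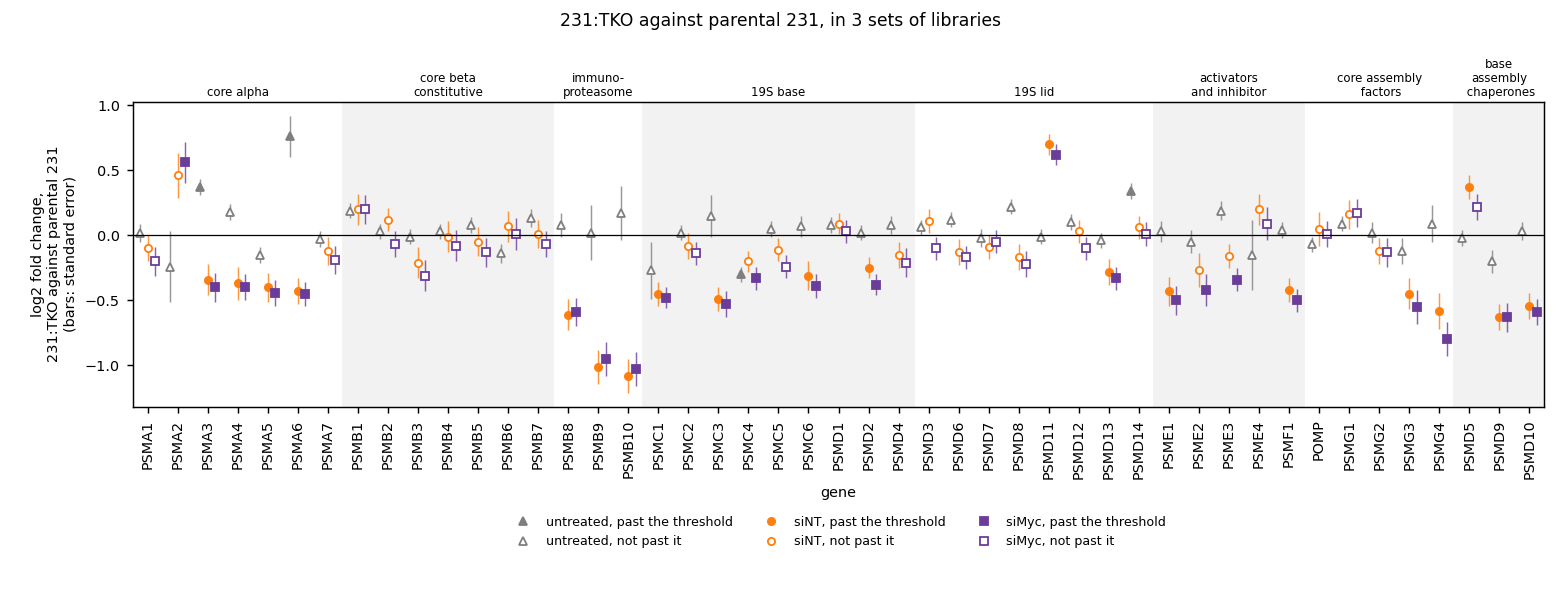
Log2 fold change of 231:TKO against parental 231 (bars are standard errors) for 47 proteasome genes in the untreated (triangles), siNT (circles) and siMyc (squares) libraries; filled symbols passed an adjusted p of 0.05. The untreated points of PSMB8, PSMB9 and PSMB10 lie at 0.08, 0.02 and 0.17, while their siRNA points lie between -1.08 and -0.59, and PSMD11 lies above 0 in the siRNA libraries only.

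Promoters of the immunoproteasome genes are printed because these genes were lower in 231:TKO in both siRNA comparisons and the window of one lacks the letters found in the others. PSMB8 lies at chr6:32843998-32844297 on the minus strand, PSMB9 at chr6:32853942-32854241 on the plus strand and PSMB10 at chr16:67936801-67937100 on the minus strand, from RefSeq on GRCh38.p14. Capitals mark the same pair of GAAA, on either strand, in PSMB8 at 4 bases and in PSMB10 at 21 bases before the start. They mark TGACNNNGC, on the other strand, in PSMB9 at 148 bases before the start.
PSMB8: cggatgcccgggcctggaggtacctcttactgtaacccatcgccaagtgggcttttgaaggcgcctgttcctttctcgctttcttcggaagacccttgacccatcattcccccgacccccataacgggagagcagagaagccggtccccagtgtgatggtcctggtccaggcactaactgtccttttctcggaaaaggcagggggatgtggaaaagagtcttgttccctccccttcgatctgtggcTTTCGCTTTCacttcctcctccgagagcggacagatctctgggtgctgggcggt
PSMB9: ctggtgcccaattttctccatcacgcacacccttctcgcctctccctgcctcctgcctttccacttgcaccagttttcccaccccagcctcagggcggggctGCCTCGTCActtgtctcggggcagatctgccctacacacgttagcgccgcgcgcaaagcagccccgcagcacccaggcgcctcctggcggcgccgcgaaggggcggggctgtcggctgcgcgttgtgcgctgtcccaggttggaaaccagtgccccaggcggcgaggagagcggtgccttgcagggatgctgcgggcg
PSMB10: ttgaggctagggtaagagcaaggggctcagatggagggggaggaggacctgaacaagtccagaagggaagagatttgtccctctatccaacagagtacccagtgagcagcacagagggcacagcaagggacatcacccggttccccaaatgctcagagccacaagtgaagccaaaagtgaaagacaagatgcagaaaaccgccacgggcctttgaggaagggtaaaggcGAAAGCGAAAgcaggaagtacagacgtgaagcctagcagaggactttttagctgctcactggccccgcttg

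The share of the immunoproteasome within each catalytic pair is a ratio within a library. The untreated, 231:TKO siRNA and parental 231 siRNA libraries also differ in read type, output name number or annotation release. A ratio within a library need not remove such differences, and their part in the shares was not tested. It was taken as the level per length of PSMB8, PSMB9 or PSMB10 over its sum with PSMB5, PSMB6 or PSMB7. For the trio together it was 5.74% in parental 231 and 5.93% in 231:TKO without siRNA, 11.0% in 231:TKO+siNT and 12.5% in 231:TKO+siMyc, and 17.9% in parental 231+siNT and 19.1% in parental 231+siMyc. The PSMB8 share was 10.1% ± 0.285 (SD) and 10.1% ± 0.206 in untreated parental 231 and 231:TKO, 16.1% ± 0.217 and 18.1% ± 0.171 in 231:TKO with siNT and siMyc, and 22.0% ± 0.474 and 23.2% ± 0.3 in parental 231. The order of the groups was the same for PSMB9 and PSMB10, whose shares ran from 3.75% and 2.95% in parental 231 to 17.4% and 15.8% in parental 231+siMyc. The libraries that stood apart lay close to their groups in this ratio: the trio's share was 18.1% in parental 231+siNT replicate 1 beside 18.1% and 17.3% in the others, and 19.4% in parental 231+siMyc replicate 3 beside 19.1% and 18.8%. The size of all these shares depends on the division by length. From counts without it, the trio's share was 10.3% to 11.3% in untreated libraries. It was then 18.3% to 21.5% in 231:TKO siRNA libraries and 28.0% to 30.7% in parental 231 siRNA libraries.

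With siMyc the trio's share by level per length was higher by 1.55 percentage points in 231:TKO and by 1.23 in parental 231, and every siMyc library was above every siNT library. Between the populations it was lower in 231:TKO by 6.9 points with siNT and by 6.58 with siMyc. Each of these comparisons gave 0.1 in an exact two-sided permutation test, which is the smallest p that 3 libraries against 3 allow. Over the 4 comparisons of the trio and its 3 genes (16 tests), 15 gave that p and PSMB9 with siMyc in parental 231 gave 0.3 by the same exact test. Benjamini-Hochberg adjusted values were 0.107 for the 15 tests and 0.3 for the other. In the untreated libraries, 2 against 2, the difference was 0.191 points and was not tested.

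**Figure D4:**
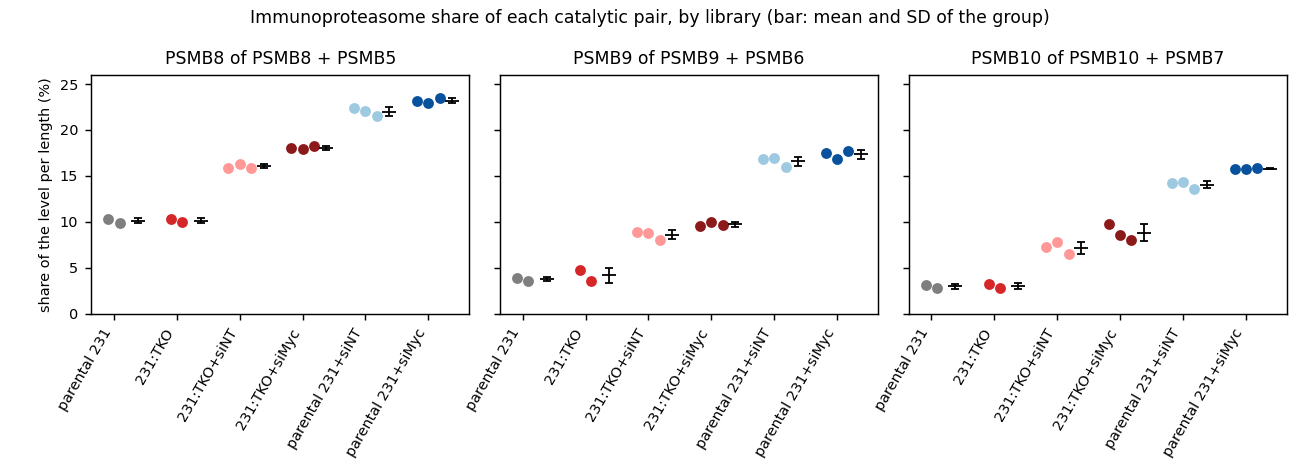
Share (%) of the level per length taken by PSMB8, PSMB9 and PSMB10 within the pairs PSMB8 and PSMB5, PSMB9 and PSMB6, and PSMB10 and PSMB7, 1 point per library, with the mean and SD of each group as a bar. In each panel the untreated libraries are lowest, the 231:TKO siRNA libraries lie between and the parental 231 siRNA libraries are highest, with PSMB8 at a mean of 23.2% in parental 231+siMyc. These sets of libraries also differ in read type, output name number or annotation release.

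Other roles differed between the siRNA populations as well. PSMD11 was higher in 231:TKO, at 208, 199 and 206 CPM against 124, 123 and 124 CPM in parental 231+siNT, groups far apart, with a log2 fold change of 0.70 ± 0.08 (adjusted p 5.23e-05). With siMyc it was 0.62 ± 0.08 (adjusted p 7.02e-05). PSMD5 was higher by 0.37 ± 0.09 with siNT (adjusted p 0.00683) and had 0.22 with siMyc (adjusted p 0.0911), where it was called higher with the factor, at 0.16 (adjusted p 0.0428), and without the libraries that stood apart, at 0.16 (adjusted p 0.0435). PSMA2 was the other gene higher with siMyc, at 0.56 ± 0.16 (adjusted p 0.015), on the low counts given above. With siNT PSMA2 had 0.46 (adjusted p 0.0554), and it was called with the factor at 0.61 (adjusted p 0.000538) and without the libraries that stood apart at 0.63 (adjusted p 0.000286).

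Among the genes lower in 231:TKO, the base chaperones PSMD9 and PSMD10 had log2 fold changes of -0.63 ± 0.10 (adjusted p 0.000612) and -0.54 ± 0.10 (adjusted p 0.00157) with siNT. PSMD9 had 35.1, 35.9 and 34.0 CPM against 59.9, 50.2 and 48.9 CPM, and PSMD10 62.8, 61.8 and 63.3 CPM against 102, 85.3 and 80.9 CPM, both without overlap. PSMG4 was lower by 0.58 ± 0.14 on the log2 scale with siNT (adjusted p 0.0074) and had -0.80 with siMyc (adjusted p 0.000285), where its 231:TKO libraries were at 13.3 to 13.4 CPM and those of parental 231 at 20.3 to 28.4 CPM. Its partner PSMG3 had -0.45 and -0.55. PSME1 had -0.43 ± 0.11 with siNT and -0.50 with siMyc, and the inhibitor PSMF1 had -0.42 ± 0.09 and -0.50. Without the libraries that stood apart, the siNT values of PSMG4, PSMG3 and PSME1 were smaller in size, at -0.37, -0.28 and -0.28, and still called. With neighbour offsets, PSMG4 had -0.10 and -0.32, PSMG3 had -0.19 and -0.30 and PSMF1 had -0.16 and -0.21, none of them called. PSME1 had -0.37 and -0.45 and PSMD11 had 0.68 and 0.63 with these offsets, and both were called. POMP had 0.05 with siNT and 0.01 with siMyc, and PSMG1 0.16 and 0.17, none past the threshold with the libraries taken as they are. With the factor PSMG1 was called higher in both, at 0.28 (adjusted p 6.01e-05) and 0.31 (adjusted p 0.000204), and POMP was called higher with siNT, at 0.24 (adjusted p 0.000191), but not with siMyc, at 0.11 (adjusted p 0.126). Leaving out the libraries that stood apart gave the same calls.

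**Figure D5:**
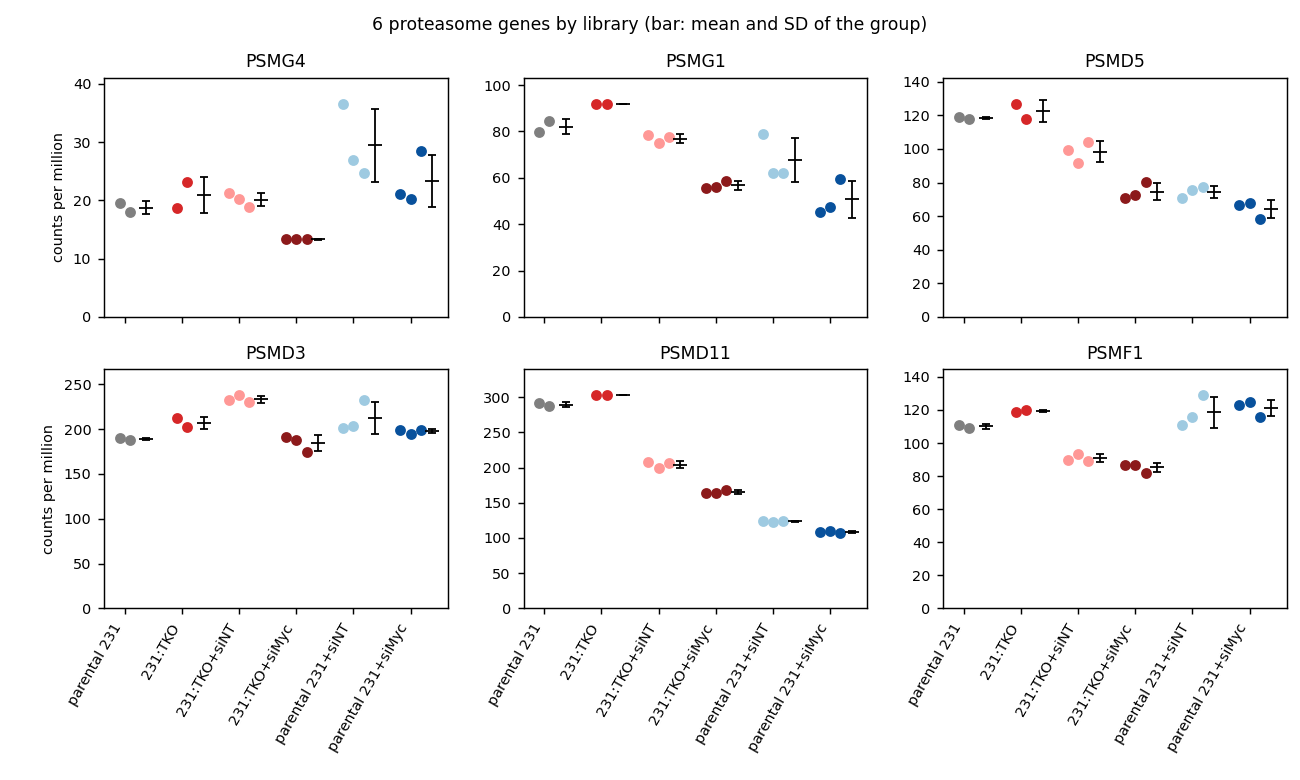
CPM of PSMG4, PSMG1, PSMD5, PSMD3, PSMD11 and PSMF1 in each library (points) with the mean and SD of each group (bars), axes starting at 0. In 231:TKO the siMyc points of PSMG4, PSMG1, PSMD5, PSMD3 and PSMD11 lie below the siNT points without overlap, and PSMD11 is at 199 to 208 CPM in 231:TKO+siNT against 123 to 124 CPM in parental 231+siNT.

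An interaction term compared the difference between 231:TKO and parental 231 in the siNT libraries with that in the untreated libraries. It called 8 members lower (17.0%) and 1 higher, beside 7.91% and 6.2% of all 25112 genes tested. With the factor for the libraries that stood apart, 14 were lower and 4 higher (11.1% and 8.33% of all genes), and without those libraries 16 and 4 (13.2% and 7.44%). All 3 immunoproteasome genes, PSMA3, PSMA6, PSMC3, PSMD10 and PSMF1 were lower and PSMD11 was higher. These sets differ in siRNA treatment, read type, output name number and, for parental 231, annotation release, which cannot be told apart. The leukocyte markers given above differ between the same sets, but not in the same direction. In CPM, PTPRC was lower in the siNT libraries than in the untreated libraries of both populations, with at most 4 counts in 231:TKO. CD14 was higher in the siNT libraries of both populations, and CD3E had 0 counts in all these libraries. The rise of the summed markers thus came from CD14 alone, and its cause was not tested.

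Genes that work with the proteasome, from a list of 40, moved in both directions. With siMyc in 231:TKO, 5 of the 40 rose and 17 fell, beside 13.3% and 13.9% of all genes. Of the 11 genes of 26S function that are not members, 8 fell and none rose, among them the ubiquitin receptor ADRM1 at -0.20 (adjusted p 0.0119), whereas SEM1, the small lid subunit, had -0.08 (adjusted p 0.382). Of the 10 genes for transcriptional activation of the proteasome, 2 fell, one being DDI2, the protease that processes NFE2L1, at -0.53 (adjusted p 1.5e-06). NFE2L1 itself had 0.03 (adjusted p 0.673). Of the 11 ubiquitin and shuttle genes, 2 rose and 6 fell. Among the 8 interferon-linked genes, 3 rose and 1 fell: B2M, the light chain of class I molecules, was at 0.31 (adjusted p 3.65e-05) and the peptide transporter gene TAP2 at -0.50 (adjusted p 7.51e-07), while IRF1 had -0.01.

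In untreated 231:TKO, 4 of the 40 pathway genes rose and 2 fell, beside 5.43% and 4.18% of all genes, so the count that fell was near the background. TXNL1, a thioredoxin-like protein of the 19S particle, had 0.97 (adjusted p 0.00644) and SEM1 0.81 (adjusted p 0.00735). With siNT, 12 were higher and 9 lower in 231:TKO than in parental 231, beside 16.1% and 20.7% of all genes, and the count of lower genes was again near the background. With the factor 12 were higher and 12 lower, beside 20.7% and 25.9%. Of the interferon-linked genes 4 were higher and 3 lower: NLRC5, an activator of class I genes, had 0.75 (adjusted p 0.00131), TAP1 had -0.78 (adjusted p 3.83e-05) and IRF1 had -0.58 (adjusted p 0.000246). With siMyc, 10 of the 40 were higher and 13 lower, beside 18.8% and 21.7% of all genes, and with the factor 13 and 17, beside 22.4% and 25.9%. NLRC5, TAP1 and IRF1 had 0.83, -0.74 and -0.62 with siMyc. The interferon-linked genes thus had both directions, while the 3 immunoproteasome genes were all lower. The list was chosen with earlier results of these data known.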

How the data were processed

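RNA from 16 cultures of MDA-MB-231 cells was sequenced. The deposited files hold raw counts per gene, which the authors made by aligning reads with STAR to GRCh38 and counting with featureCounts 1.6.3 against Ensembl release 102 or, for the parental 231 siRNA libraries, release 104. Per the file headers, counting used single reads for the untreated libraries and read pairs for the siRNA libraries, and reads that matched several places were left out. Output names in these headers began with 11809 (untreated), 18604 (231:TKO siRNA) or 19208 (parental 231 siRNA). The meaning of these numbers is not stated. The depth was 18953668 to 59799444 counts per library, which sets the counting error only.

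The identifiers of both releases gave 60719 rows, of which 60620 were shared and 58705 (96.7%) had a symbol. Counts were tested in R 4.3.3 with edgeR 4.0.16 (quasi-likelihood test, robust, TMM), on genes whose counts over all libraries of a fit came to more than 5, with Benjamini-Hochberg adjustment over all genes tested and a threshold of 0.05. The study used DESeq2, which was run as an alternative (1.42.0). Each comparison used its own libraries, and the difference between comparisons was an interaction term. CPM used TMM factors over all 16 libraries and each fit used factors over its own, so ratios of CPM and log2 fold changes can differ. The level per length divides counts by the exon length in the file. Shares were compared with an exact two-sided permutation test. The edgeR script was tested on simulated data.

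Named members were the catalytic subunits, activators, inhibitor and assembly factors, PSMC4, members near 0, and in each comparison up to 5 called members with the largest log2 fold change in each direction at a mean of at least 1 CPM. Some others are named as examples of their subgroup or for uneven counting, after their values were seen. The members, gene lists and tests were chosen with earlier results of these data known. The labels call the libraries replicates and the study biological replicates, so p-values measure the spread between these cultures. The replicate numbers did not pair the samples: correlations of same-numbered deviations ran from -0.81 to 0.63. Alternatives were another tool, normalization, filter, threshold, replicate block, gene length offsets, neighbour offsets and each library left out. The factor for the libraries that stood apart, and leaving both out, were added after seeing the data. The values of 1 gene of the pathway list are not reported here.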

Additional observations from a re-analysis of the deposited data

Results flagged for a closer look

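The difference between 231:TKO and parental 231 was not the same in the siNT-treated and untreated libraries for 9 members, by an interaction term in edgeR (quasi-likelihood test, p adjusted by Benjamini-Hochberg over all genes). The siNT minus untreated difference (log2) was -1.25 for PSMB10 (adjusted p 0.00324), -1.19 for PSMA6 (adjusted p 0.000502), -1.03 for PSMB9 (adjusted p 0.013), -0.72 for PSMA3 (adjusted p 0.0148), -0.70 for PSMB8 (adjusted p 0.0239), -0.65 for PSMC3 (adjusted p 0.0273), -0.58 for PSMD10 (adjusted p 0.0209) and -0.46 for PSMF1 (adjusted p 0.0326). For PSMD11 it was 0.70 (adjusted p 0.00158).

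PSMD11, PSMA6 and PSMB10 kept their calls in every alternative planned, and PSMA6 is among the genes counted unevenly between single reads and read pairs. With neighbour offsets PSMB8 had -0.31, PSMB9 -0.67, PSMD10 -0.35 and PSMF1 -0.21, none of them called. PSMB10 had -1.24, PSMA6 -1.04, PSMC3 -0.65 and PSMD11 0.67, all still called. PSMA3 had -0.55, with an adjusted p of 0.05 by the same test, at the threshold. The sets of libraries differ in siRNA treatment, read type, output name number and annotation release, which cannot be told apart here.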

How the results depend on the processing

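Of the counts of called members, 191 of 248 alternatives stayed within 1.5 times the reported value, and of single members' values 2094 of 2366 kept their direction and side of the threshold. In no alternative was a member called in the reported fit called in the opposite direction; PSMB1, not called there, was called higher with the factor and lower with neighbour offsets between the siRNA populations. The cause of the changes below was not tested. In untreated cells, adjusted p of at most 0.01 left 0 higher and 0 lower, neighbour offsets left 0 lower and turned PSMD14 to -0.13. Leaving out 1 library gave 0 to 13 higher and 0 to 7 lower: 11 and 7 without 231:TKO replicate 1, 13 and 5 without 231:TKO replicate 2, and 0 and 0 without either parental 231 library. For siMyc in 231:TKO, a single fit of 12 libraries left 5 lower in place of 27, and leaving out 1 library gave 0 to 2 higher (2 without 231:TKO+siMyc replicate 3) and 21 to 33 lower, with 20 of the 27 called in each such fit. For siMyc in parental 231, the factor gave 2 higher and 19 lower, leaving out both libraries 1 and 9, and gene length offsets and the single fit of 12 libraries 1 lower each.

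For 231:TKO against parental 231 with siNT, 10 members were higher with gene length offsets, 4 with neighbour offsets and 11 with the factor or without both libraries, and 10 were lower at 0.01 and 11 with neighbour offsets. Leaving out 1 library gave 1 to 11 higher (1 without 231:TKO+siNT replicate 3, 11 without parental 231+siNT replicate 1) and 10 to 19 lower (10 without 231:TKO+siNT replicate 1 or 3). With siMyc 1 was higher at 0.01, 9 with gene length offsets and 6 with the factor or without both libraries. Leaving out 1 library gave 1 to 6, with 1 without 231:TKO+siMyc replicate 1 or 3 or parental 231+siMyc replicate 2 and 6 without parental 231+siMyc replicate 3. For the siNT minus untreated difference, 2 were higher with DESeq2, with library totals or with more than 5 counts in every library, 5 with gene length offsets and 4 with the factor or without both libraries. Lower were 2 at 0.01, 4 with library totals, 14 with the factor and 16 without both libraries. Leaving out 1 library gave 1 to 4 higher (2 without 231:TKO replicate 2, 4 without parental 231+siNT replicate 1) and 2 to 16 lower (3 and 2 without parental 231 replicate 1 and 2, 4, 5 and 4 without 231:TKO+siNT replicate 1, 2 and 3, and 16 without parental 231+siNT replicate 1). Without division by length, the trio's share differed by 2.28 points for siMyc in 231:TKO, by -9.69 with siNT and by -8.93 with siMyc between populations.

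A replicate block, although the replicate numbers did not pair the samples, left 0 higher and 0 lower in untreated cells and 0 higher and 29 lower for siMyc in 231:TKO. For parental 231 siMyc it gave 0 and 0, for 231:TKO against parental 231 it gave 3 higher and 16 lower with siNT and 2 and 21 with siMyc, and for the siNT minus untreated difference 1 and 7.

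Depth limits the members at under 3 counts. PSMC1 and PSMA6 were counted unevenly and PSMA2 low, and why was not tested. Groups of 2 and 3 libraries limit the calls, and counts that use parental 231 siRNA libraries move with the libraries that stood apart.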
